A study of Mus musculus with 5 samples.

Results

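The Wnt pathway genes examined here were the ligands, receptors, secreted modulators and intracellular effectors of Wnt signalling in the mouse heart at embryonic day 10.5. They were taken by symbol from the reference annotation. The rule kept every gene whose symbol starts with Wnt, Fzd, Sfrp, Dkk or Rspo and a digit, together with Lrp5, Lrp6, Ror1, Ror2, Dvl1, Dvl2, Dvl3, Axin1, Axin2, Csnk1e, Ctnnb1, Lef1, Tcf7, Tcf7l1 and Tcf7l2. Of 58 such symbols, 56 had a RefSeq-linked transcript, out of 24303 genes with one, and 43 of these had tags in at least 1 library, out of 13486 genes. The non-coding symbols Rspo4os and Fzd10os had no such transcript and were not analysed here.

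RNA was measured by Tag-seq, which sequences a short tag at NlaIII sites (CATG) of polyadenylated transcripts, preferentially the site nearest the 3' end. The 4 wild-type C57BL/6 libraries came from atrioventricular canal (AVC) and outflow tract (OFT), each pooled from 25 embryos, and from atria and ventricles, each pooled from 20 embryos. The AVC and OFT are the regions where the endocardial cushions form, the precursors of valves and septa. The fifth library came from the AVC of 8 pooled Twist1 null embryos on an ICR background, so that genotype and strain differ together and cannot be told apart. All embryos were at Theiler stage 17, and there was 1 library per group. The study asked which genes mark the valve-forming regions and which of them differ when Twist1, a transcription factor of cushion mesenchyme, is absent.

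In canonical Wnt signalling a secreted Wnt ligand binds a Frizzled receptor and an LRP co-receptor, Dishevelled passes the signal on, and β-catenin escapes degradation and binds TCF/LEF factors on DNA. Other Wnt ligands act through ROR receptors and Dishevelled on cell polarity and movement without β-catenin. R-spondins raise the response by sparing Frizzled receptors from removal, while secreted Frizzled-related proteins and Dickkopf proteins bind ligands or co-receptors and mostly restrain it, and the pathway is known to act in cushion formation and valve growth.

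A gene's level is given in TPM, the sum of its sense tags that match no other gene per 1000000 tags of the library. The totals were 6075421 tags for the AVC, 5267618 for the OFT, 4666514 for the atria, 4223810 for the ventricles and 12977237 for the null AVC. Only tag types seen at least 6 times in a library are listed, so the smallest level that could be seen was 0.988, 1.14, 1.29, 1.42 and 0.462 TPM in that order. "Not listed" below means that no tag type of the gene reached 6 tags, not that the gene was off.

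Differences were tested with edgeR's two-sided exact test at a fixed dispersion of 0.12, and a gene was called at an unadjusted exact p under 0.05. With 1 library per group this compares libraries, not conditions. Ratios of TPM carry 95% exact binomial intervals in brackets, which cover counting error only. Against a library in which a gene was not listed, 5 tags were set for each missing tag type and the ratio is given as a lower bound. Atria and ventricles were summed as the chambers for the comparisons of AVC and OFT.

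The libraries differed in the first base and site of their tags, in haemoglobin and in cell type markers, and the source of these differences was not tested. Of all tags of 1 gene, those whose first base after CATG is T made up 15.4% of AVC and 16.4% of OFT tags, but 34.9% of atrial, 24.6% of ventricular and 34.6% of null tags. Of the same tags, those from the 3'-most site made up 70.5% in AVC, 69.1% in OFT, 80.3% in atria, 74.8% in ventricles and 67.5% in the null AVC. Haemoglobin took 21.5% of the atrial tags, 4.67% of the ventricular tags and 2.73% of the null tags. In AVC and OFT it took 0.242% and 0.307%. The summed level of 9 cushion mesenchyme markers was 2622 TPM for AVC, 3301 for OFT, 305 for atria, 290 for ventricles and 546 for the null AVC, with Prrx1 not listed in the atria and ventricles. In the same order, 10 cardiomyocyte markers summed to 24894, 26932, 8557, 23344 and 21112 TPM, 8 endothelial markers to 495, 549, 207, 272 and 601 TPM, and 8 smooth muscle and neural crest markers to 510, 1348, 290, 402 and 1037 TPM. In that order, 8 epicardium markers summed to 302, 134, 365, 347 and 221 TPM. The endothelial marker Emcn was not listed in AVC, and the epicardium marker Wt1 not in atria. Myh11 was listed in AVC alone, and Sox10 in AVC and the null AVC alone. Rgs5 was not listed in atria, nor Isl1 in ventricles. A change in the number of mesenchyme cells and a change in RNA per cell cannot be told apart in such tissue. Twist1 itself was at 918 TPM in the wild-type AVC and 4.55 TPM in the null AVC, in the direction of the genotype label. Relative to TMM normalization, the totals used here shift the log2 ratio of every gene by about 0.95 towards AVC and 0.86 towards OFT over chambers, so counts under TMM are given beside the main ones.

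More pathway genes were listed in AVC and OFT than in the chambers, as were more genes overall (11915 in AVC, 11702 in OFT, 9777 in atria, 9721 in ventricles and 12608 in the null AVC). Of the 56 pathway genes, 39 were listed in AVC, 34 in OFT, 28 in atria, 22 in ventricles and 40 in the null AVC. After thinning every library to the depth of the ventricles these numbers were 39, 33, 28, 22 and 33. The 13 genes not listed in any library were Wnt1, Wnt3, Wnt3a, Wnt6, Wnt7a, Wnt8a, Wnt8b, Wnt10a, Wnt10b, Wnt16, Rspo2, Rspo4 and Dkk4.

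**Figure D1:**
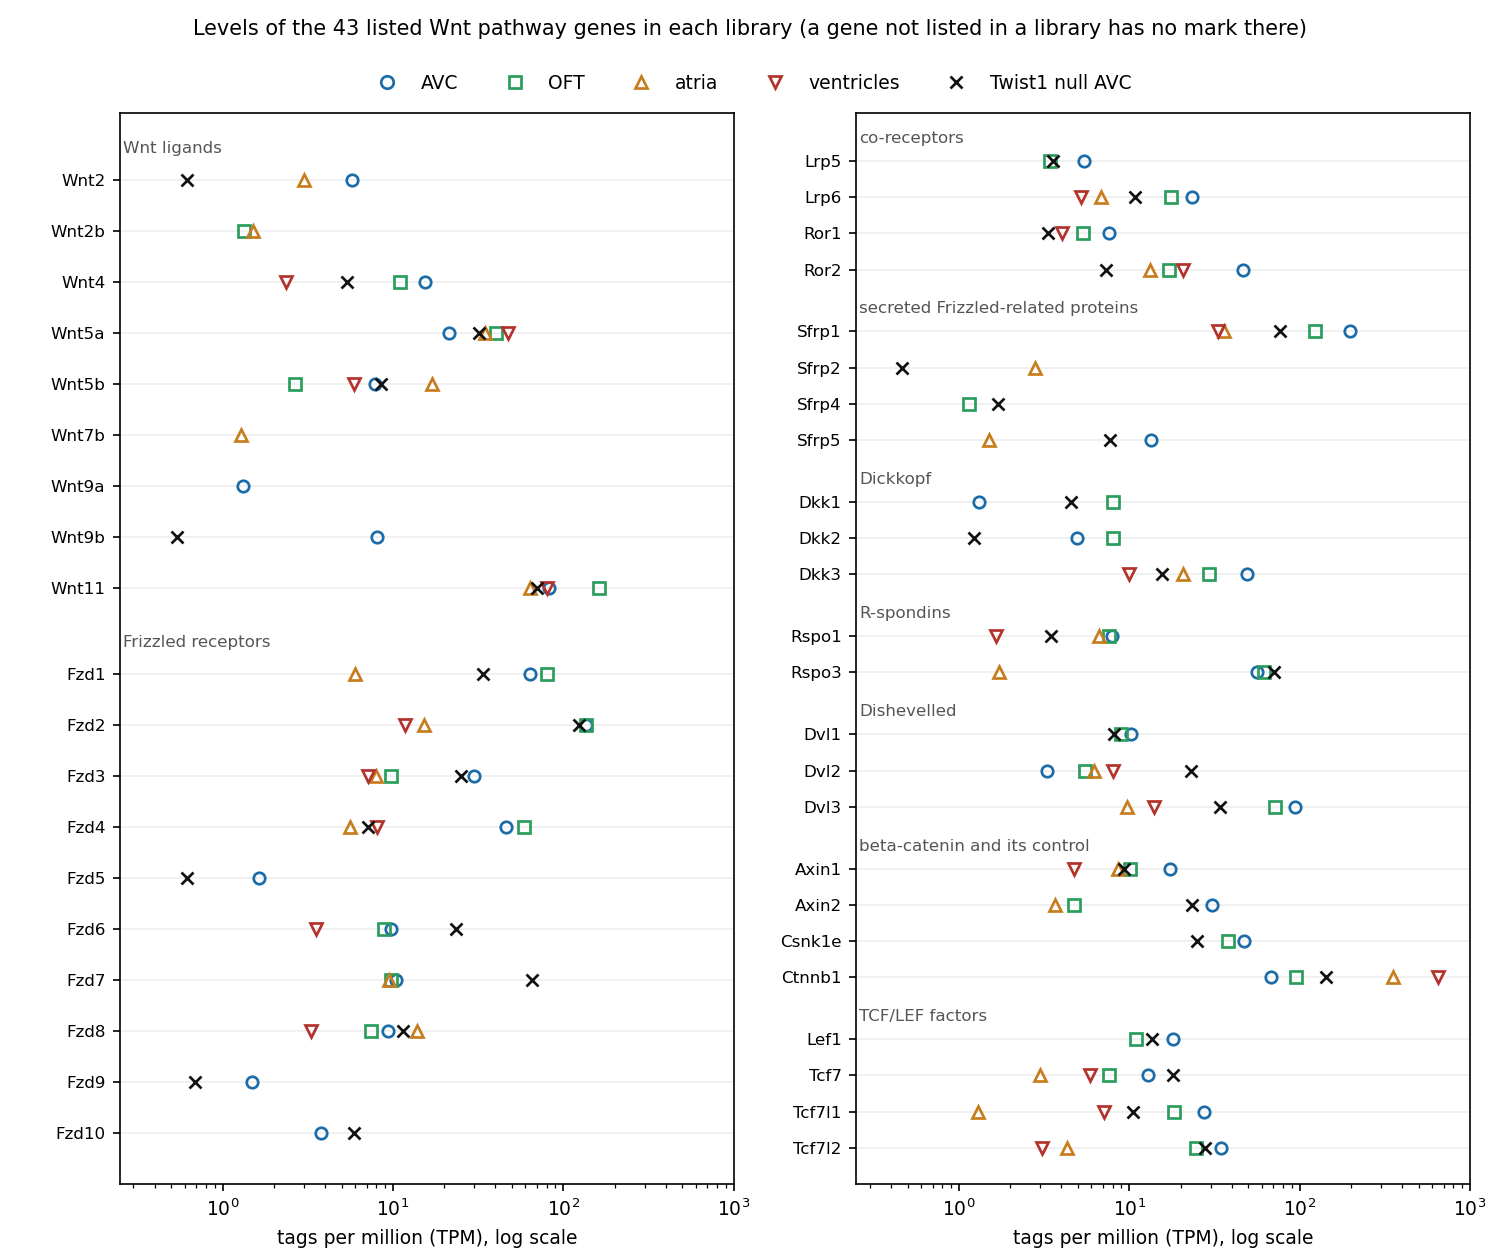
Level of each of the 43 listed Wnt pathway genes (rows, grouped by role) in TPM on a log x axis, with 1 symbol per library and no symbol where a gene was not listed. For Fzd1, Fzd2, Fzd4, Rspo3, Dvl3 and Tcf7l2 the AVC and OFT symbols lie well to the right of those of atria and ventricles, while the Ctnnb1 symbols of the chambers, which rest on a single tag type, lie to the right.

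Of 42 pathway genes tested, the AVC had 28 called above the chambers and 2 below them. Of all genes tested, 43.4% were called higher and 8.12% lower in the same comparison. With TMM the pathway counts were 22 and 6, against 25.6% and 17.5% of all genes. The median fitted log2 ratio was 2.64 for the pathway genes, or 1.94 with genes not listed on one side at their bound, and 1.23 for all genes.

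In the OFT, 18 of 38 pathway genes were called higher than in the chambers and 4 lower, where 40.6% and 8.88% of all genes were called. With TMM these counts were 13 and 5, against 26.2% and 17.7% of all genes, and the median fitted log2 ratio was 1.39 for the pathway genes (1.47 with bounds) and 1.07 for all genes. Between the cushion regions, 2 of 41 pathway genes were called higher in OFT than in AVC and 9 lower (5.22% and 7.35% of all genes). Between the chambers, 4 of 31 were called higher in ventricles and 10 lower (11.1% and 9.03% of all genes). The summed cardiomyocyte markers were higher in ventricles and haemoglobin was higher in atria, and their part in these differences was not tested. The null AVC had 4 of 41 pathway genes called higher and 9 lower than the wild-type AVC (11.9% and 12.7% of all genes). With TMM these became 5 and 6, against 14.9% and 9.36% of all genes. The median fitted log2 ratios of the pathway genes and of all genes were -0.48 and -0.10 for OFT over AVC, -0.39 and 0.31 for ventricles over atria, and -0.61 and -0.16 for the null AVC.

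**Figure D2:**
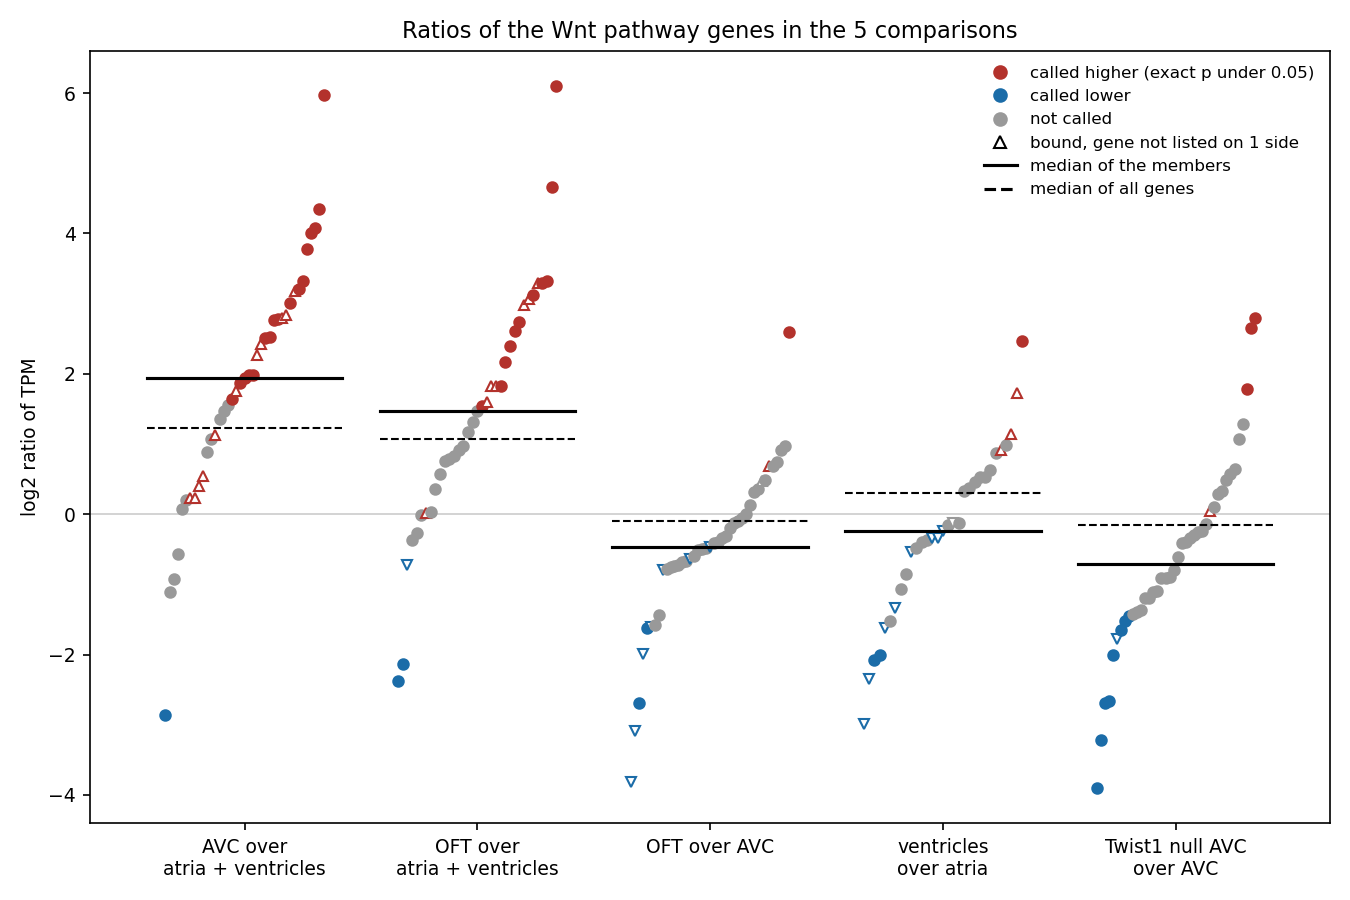
Log2 ratio of TPM (y axis) of each Wnt pathway gene with a ratio or bound (points, sorted) in the 5 comparisons (x axis), coloured by call, with open triangles for bounds. The solid line is the median of the plotted pathway genes, 1.94 for AVC over chambers and -0.70 for the null AVC, and the dashed line is the median of the fitted log2 ratios of all genes, 1.23 and -0.16.

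Among 19 Wnt ligands, 9 were listed. The most frequent, Wnt11 and Wnt5a, are ligands best known for signalling without β-catenin. Neither was called in any comparison with all tags counted and the library totals given above. Wnt11 was at 83.0 TPM in AVC, 163 in OFT, 64.1 in atria and 80.5 in ventricles. OFT exceeded AVC 1.96-fold (1.75 to 2.19), but the exact p was 0.184. Wnt5a was at 21.4 TPM in AVC, 40.4 in OFT, 34.5 in atria and 47.4 in ventricles. With TMM it was called lower in AVC than in the chambers, with an exact p of 0.0133. Tags that start with T made up 145 of its 161 tags in atria and 187 of 200 in ventricles. Its other tags numbered 59 in AVC, 126 in OFT, 16 in atria and 13 in ventricles, and on these alone Wnt5a was called higher in OFT than in the chambers (126 against 29 tags, exact p = 0.000505), so that its direction depends on the tags counted.

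Wnt9b, a ligand that signals through β-catenin in several organs, was read in the wild-type libraries as a single tag type listed in the AVC alone. It is shown because this ligand had the largest ratio called in the null comparison. The tag lies in the 3'UTR in exon 4 of 4, at chr11:103727563-103727583 on the minus strand of GRCm38, and capitals mark the NlaIII site here and below.
Wnt9b: CATGcttcctgtctgagcact
The tag was counted 49 times in the AVC (8.07 TPM) and was not listed in OFT, atria or ventricles. The AVC was at least 7.17-fold above the chambers (exact p = 6.23e-07) and at least 8.50-fold above the OFT (exact p = 3.37e-06).

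Wnt4, known from kidney and gonad development, was at 15.5 TPM in AVC, 11 in OFT and 2.37 in ventricles and was not listed in atria. The AVC was 13.8-fold (7.16 to 29.6) above the chambers with an exact p of 3.46e-05. The OFT was 9.79-fold (4.96 to 21.5) above them with an exact p of 0.000295. Wnt4 was also called higher in ventricles than in atria, by at least 2.21-fold (exact p = 0.0113), and this direction did not hold when tags shared with other genes were counted. Both cushion regions therefore exceeded both chambers for Wnt4.

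Wnt2, a ligand of the early cardiac field and lung, was at 5.76 TPM in AVC and 3.00 in atria and was not listed in OFT and ventricles. The AVC exceeded the chambers 3.66-fold (1.92 to 7.36, exact p = 0.0331), a call lost with TMM (exact p = 0.295). It exceeded the OFT at least 3.03-fold (exact p = 2.81e-05). Levels in the OFT were at least 1.66-fold below the chambers (exact p = 0.0078), and those in ventricles at least 2.53-fold below the atria (exact p = 0.00386). Of the wild-type libraries, Wnt2 was thus listed in AVC and atria alone.

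Wnt5b was at 7.90 TPM in AVC, 2.66 in OFT, 16.9 in atria and 5.92 in ventricles, and was 4.40-fold (2.51 to 8.33) lower in OFT than in the chambers (exact p = 0.0126). Its only tag type starts with T, the base over-represented in the chamber libraries, and the call was lost against ventricles alone. The remaining ligands had few tags. Wnt9a had 8 tags in the AVC and none listed elsewhere, at least 1.17-fold above the chambers (exact p = 0.0168) and at least 1.39-fold above the OFT (exact p = 0.0254). Wnt2b had 7 tags each in OFT and atria and was called higher in OFT than AVC (at least 1.61-fold, exact p = 0.0391) and lower in ventricles than atria (at least 1.27-fold, exact p = 0.0391). Wnt7b had 6 tags in atria and was not called in any comparison at these totals, though with TMM it was called lower in the AVC than in the chambers (exact p = 0.0391), as was Wnt2b (exact p = 0.0254).

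All 10 Frizzled genes, which encode the seven-pass Wnt receptors, were listed in AVC, 7 in OFT, 6 in atria and 5 in ventricles. Fzd2 was at 136 TPM in both AVC and OFT, 15.2 in atria and 11.8 in ventricles. It was 9.97-fold (8.23 to 12.2) above the chambers in AVC (exact p = 3.11e-05) and 9.96-fold (8.20 to 12.2) in OFT (exact p = 3.16e-05). Fzd1 was at 64.0 TPM in AVC, 79.7 in OFT and 6.00 in atria and was not listed in ventricles. The ratio over the chambers was 20.3 (13.8 to 31.0) in AVC, with an exact p of 4.4e-07, and 25.3 (17.3 to 38.6) in OFT, with an exact p of 8.21e-08. Ventricles were at least 5.07-fold below atria for Fzd1 (exact p = 9.29e-05). Fzd1 and Fzd2 share one tag type with Fzd7, which was counted 8 times in the AVC and was assigned to none of them.

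Fzd4, a receptor of endothelial cells among others, was at 46.3 TPM in AVC, 59.0 in OFT, 5.57 in atria and 8.05 in ventricles. It was 6.85-fold (5.17 to 9.21) above the chambers in AVC (exact p = 0.000451) and 8.75-fold (6.62 to 11.7) in OFT (exact p = 0.000101). Fzd3, a receptor of the planar polarity branch, was called between the cushion regions. It was at 29.8 TPM in AVC, 9.68 in OFT, 7.93 in atria and 7.10 in ventricles, so that the AVC was 3.08-fold (2.24 to 4.29) above the OFT (exact p = 0.0364). This call was lost under 5 of 16 alternatives, among them Benjamini-Hochberg adjustment over all genes and the 3'-most site alone. The AVC also exceeded the chambers 3.95-fold (2.97 to 5.31, exact p = 0.0106), a call lost with TMM (exact p = 0.173).

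Fzd6, also of the planar polarity branch, was at 9.71 TPM in AVC, 8.92 in OFT and 3.55 in ventricles and was not listed in atria. It was called higher than the chambers in AVC (5.76-fold, 3.22 to 10.9, exact p = 0.00357) and in OFT (5.29-fold, 2.91 to 10.2, exact p = 0.00609), and both calls were lost with TMM (exact p of 0.0604 and 0.0869). All Fzd6 tags start with T. Ventricles exceeded atria at least 3.31-fold (exact p = 0.00149). Fzd7 was at 10.4 TPM in AVC, 9.68 in OFT and 9.43 in atria and was not listed in ventricles. Ventricles were at least 7.97-fold below the atria for Fzd7 (exact p = 6.12e-06). All 44 atrial Fzd7 tags start with T, so this comparison cannot be made without such tags. Fzd8 was at 9.38 TPM in AVC, 7.40 in OFT, 13.9 in atria and 3.31 in ventricles, and was 4.2-fold (2.33 to 8.11) lower in ventricles than in atria (exact p = 0.0176). Neither Fzd7 nor Fzd8 was called between cushion regions and chambers with all tags counted. Without tags that start with T, Fzd7 was called higher in both, on 7 tags against none (exact p = 0.0254 in AVC and 0.0168 in OFT).

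Of the wild-type libraries, Fzd10, Fzd5 and Fzd9 were listed in the AVC alone. Fzd10 had 23 tags (3.79 TPM), at least 3.37-fold above the chambers (exact p = 9.29e-05) and at least 3.99-fold above the OFT (exact p = 0.000293). Fzd5 had 10 tags and was at least 1.46-fold above the chambers (exact p = 0.00545) and 1.73-fold above the OFT (exact p = 0.0168). Fzd9 had 9 tags and was at least 1.32-fold above the chambers (exact p = 0.0113) and 1.56-fold above the OFT (exact p = 0.0254). The AVC thus listed 3 Frizzled genes that no other wild-type library listed, and of these Fzd10 had most tags.

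Of the co-receptors, Lrp5 and Lrp6 were called higher than the chambers in both cushion regions, Ror1 in AVC alone and Ror2 in neither. Lrp6, which pairs with Frizzled in canonical signalling, was at 23.4 TPM in AVC, 17.7 in OFT, 6.86 in atria and 5.21 in ventricles. The ratios over the chambers were 3.85 (2.79 to 5.37) in AVC (exact p = 0.0127) and 2.91 (2.06 to 4.14) in OFT (exact p = 0.0491), and both calls were lost with TMM (exact p of 0.195 and 0.384). All chamber tags of Lrp6 start with T, and without such tags 54 were left in AVC and 52 in OFT against none listed in the chambers (exact p = 3.17e-07 and 2.85e-07). Lrp5, its close relative, was at 5.43 TPM in AVC and 3.42 in OFT and was not listed in the chambers. It was at least 4.83-fold higher in AVC (exact p = 9.87e-06) and at least 3.04-fold higher in OFT (exact p = 0.00023).

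Ror2, a receptor for Wnt5a, was at 46.3 TPM in AVC, 17.1 in OFT, 13.3 in atria and 20.6 in ventricles. The AVC was 2.76-fold (2.25 to 3.39) above the chambers (exact p = 0.0507) and 2.71-fold (2.13 to 3.47) above the OFT (exact p = 0.0578), and neither passed the threshold. Ror1 was at 7.57 TPM in AVC, 5.32 in OFT and 4.02 in ventricles and was not listed in atria. It was called higher in AVC than in the chambers (3.96-fold, 2.23 to 7.37, exact p = 0.0236), but not with TMM (exact p = 0.25). It was also higher in ventricles than in atria, by at least 1.88-fold (exact p = 0.000836).

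Rspo3, a secreted R-spondin, had the largest measured ratio over the chambers of any listed pathway gene in both AVC and OFT. It was read mainly from tag types in the 3'UTR in exon 5 of 5, on the minus strand of chromosome 10, shown because they carry the largest change called. The first lies at chr10:29452467-29452487, 70 bases from the transcript end, and the second at chr10:29453248-29453268, 851 bases from it.
Rspo3, 3'-most site: CATGggccacttggcttaaat
Rspo3, upstream site: CATGtttgcaaagttgagtgt
The first was counted 88 times in AVC, 99 in OFT, 8 in atria and 188 in the null AVC, and the second 156, 139, 0 and 618 times, with neither listed in ventricles. Over all tag types Rspo3 was at 56.3 TPM in AVC, 61.9 in OFT and 1.71 in atria. The ratio over the chambers was 62.6 (31.4 to 146) in AVC (exact p = 6.01e-10) and 68.8 (34.5 to 161) in OFT (exact p = 5.07e-10). Rspo3 was also called lower in ventricles than in atria, on 8 atrial tags (at least 1.45-fold, exact p = 0.0254).

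Rspo1 did not share that pattern. It was at 7.90 TPM in AVC, 7.59 in OFT, 6.64 in atria and 1.66 in ventricles, with exact p of 0.272 and 0.312 for AVC and OFT over the chambers. It was 4.01-fold (1.73 to 10.8) lower in ventricles than in atria (exact p = 0.0329).

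Among the secreted Frizzled-related proteins, which bind Wnt ligands outside the cell, Sfrp1 was at 197 TPM in AVC, 123 in OFT, 36.0 in atria and 33.1 in ventricles. The AVC was 5.70-fold (5.02 to 6.48) above the chambers (exact p = 0.00101). The OFT was 3.56-fold (3.10 to 4.09) above them (exact p = 0.0145), and this call was lost with TMM (exact p = 0.184). Sfrp5 separated AVC from OFT more than any other pathway gene by exact p, and its only tag type is therefore shown. It lies at chr19:42198255-42198275 on the minus strand, in the 3'UTR in exon 3 of 3.
Sfrp5: CATGcccctttgtgtgtcatc
The tag was counted 81 times in AVC (13.3 TPM) and 7 times in atria (1.5 TPM) and was not listed in OFT and ventricles. The AVC was at least 14.0-fold above the OFT (exact p = 1.04e-07) and 16.9-fold (7.85 to 43.5) above the chambers (exact p = 1.32e-05). Ventricles were at least 1.27-fold below atria (exact p = 0.0391). With TMM, Sfrp5 was also called lower in OFT than in the chambers (exact p = 0.0391), where it had an exact p of 0.0619 at these totals.

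Sfrp2 had 13 tags in the atria and none listed in the other wild-type libraries. It was called lower than the chambers in AVC (exact p = 0.0078) and OFT (exact p = 0.0113), but its level was within the limit of detection and no ratio can be given. Ventricles were at least 1.18-fold below atria (exact p = 0.00545). Sfrp4 had 6 tags in the OFT alone, at least 1.01-fold above the chambers (exact p = 0.0391), a call lost with TMM (exact p = 0.0619).

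The Dickkopf genes encode secreted proteins of which Dkk1 and Dkk2 bind LRP5 and LRP6. Dkk1 was the only pathway gene with a measured ratio called higher in OFT than in AVC, since Wnt2b, the other gene called, was not listed in AVC. It was at 7.97 TPM in OFT and 1.32 in AVC, a ratio of 6.06 (2.81 to 14.9, exact p = 0.00494, Benjamini-Hochberg adjusted p = 0.103 over all genes). It was not listed in the chambers and was at least 3.54-fold higher in OFT (exact p = 1.3e-06) and 1.17-fold higher in AVC (exact p = 0.0168). Dkk2 was at 4.94 TPM in AVC and 7.97 in OFT and was likewise not listed in the chambers. It was at least 2.19-fold higher in AVC (exact p = 1.64e-05) and 3.54-fold higher in OFT (exact p = 1.3e-06). Dkk3, a divergent member of the family, was at 48.9 TPM in AVC, 29.4 in OFT, 20.8 in atria and 9.94 in ventricles. The AVC exceeded the chambers 3.13-fold (2.55 to 3.85, exact p = 0.0295), which was lost with TMM (exact p = 0.354).

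Of the Dishevelled genes, Dvl3 was at 94.0 TPM in AVC, 71.4 in OFT, 9.64 in atria and 14.0 in ventricles. It was 8.03-fold (6.51 to 9.999) above the chambers in AVC (exact p = 0.00014) and 6.10-fold (4.90 to 7.66) in OFT (exact p = 0.00082). Dvl1 was at 10.2 TPM in AVC and 8.92 in OFT and was not listed in the chambers, at least 9.07-fold lower there than in AVC (exact p = 1.26e-07) and at least 7.93-fold lower than in OFT (exact p = 5.55e-07). All wild-type tags of Dvl1 start with T, the class that was less frequent in AVC and OFT than in the chambers. Dvl2 was at 3.29 TPM in AVC, 5.51 in OFT, 6.21 in atria and 8.05 in ventricles. It was not called at these totals, and with TMM it was called lower in AVC than in the chambers (exact p = 0.0141). Every wild-type Dvl2 tag also starts with T, 20 in AVC, 29 in OFT, 29 in atria and 34 in ventricles, so that no direction can be read without them.

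Axin2, a scaffold of the β-catenin destruction complex and a widely used reporter of canonical signalling, differed between the cushion regions. Its main tags are shown because the null library added a site not listed in the wild type, both in the 3'UTR in exon 11 of 11 on the plus strand of chromosome 11, at chr11:108950654-108950674 and chr11:108949950-108949970.
Axin2, 3'-most site: CATGgcagtttgttctacttt
Axin2, upstream site: CATGgcatttctccaagtgaa
The first was counted 181 times in AVC, 16 in OFT, 17 in atria and 153 in the null AVC, and the second 151 times in the null AVC alone. In sum Axin2 was at 30.8 TPM in AVC, 4.75 in OFT and 3.64 in atria and was not listed in ventricles. The AVC was 16.1-fold (9.79 to 28.2) above the chambers (exact p = 5e-06) and 6.49-fold (4.26 to 10.3) above the OFT (exact p = 0.000996, adjusted p = 0.0407). The OFT was not called against the chambers (2.48-fold, 1.29 to 4.90, exact p = 0.156). Ventricles were at least 3.08-fold below atria (exact p = 0.00149).

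Axin1, the related scaffold, was at 17.3 TPM in AVC, 10.1 in OFT, 8.57 in atria and 4.74 in ventricles and was not called in any comparison. Csnk1e, a kinase that phosphorylates Dishevelled and LRP6, was at 46.9 TPM in AVC and 37.8 in OFT and was not listed in the chambers. It was at least 6.95-fold higher in AVC (exact p = 9.08e-13) and 8.4-fold higher in OFT (exact p = 9.38e-12), the smallest exact p of any pathway gene in either comparison. None of its 6 tag types lies at the 3'-most site, and further tags of Csnk1e that also match other genes were left out.

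Ctnnb1, which encodes β-catenin, was called in the opposite direction, and the call rests on one of its tag types. The types lie in the 3'UTR on the plus strand of chromosome 9, at chr9:120960317-120960337 and chr9:120959672-120959692, and each is the last NlaIII site of an annotated transcript form.
Ctnnb1, distal site: CATGtttttgaacaaaaactt
Ctnnb1, proximal site: CATGtgtggaagtttctcacg
The distal tag was counted 271 times in AVC, 391 in OFT, 1644 in atria, 2713 in ventricles and 494 in the null AVC. The proximal tag was counted 111, 70, 10, 23 and 1330 times in the same order. The distal tag was therefore most frequent in the chambers and the proximal tag in the null library. In sum Ctnnb1 was at 67.6 TPM in AVC, 94.9 in OFT, 354 in atria and 648 in ventricles. The AVC was 7.30-fold (6.60 to 8.10) below the chambers (exact p = 0.000204) and the OFT 5.2-fold (4.74 to 5.72) below them (exact p = 0.00167). Both of these tag types start with T. Without the tags that start with T, 29 tags in AVC and none in the chambers were left and the direction reversed, so that no direction is given for the gene as a whole. What gave rise to the excess of such tags was not tested.

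**Figure D3:**
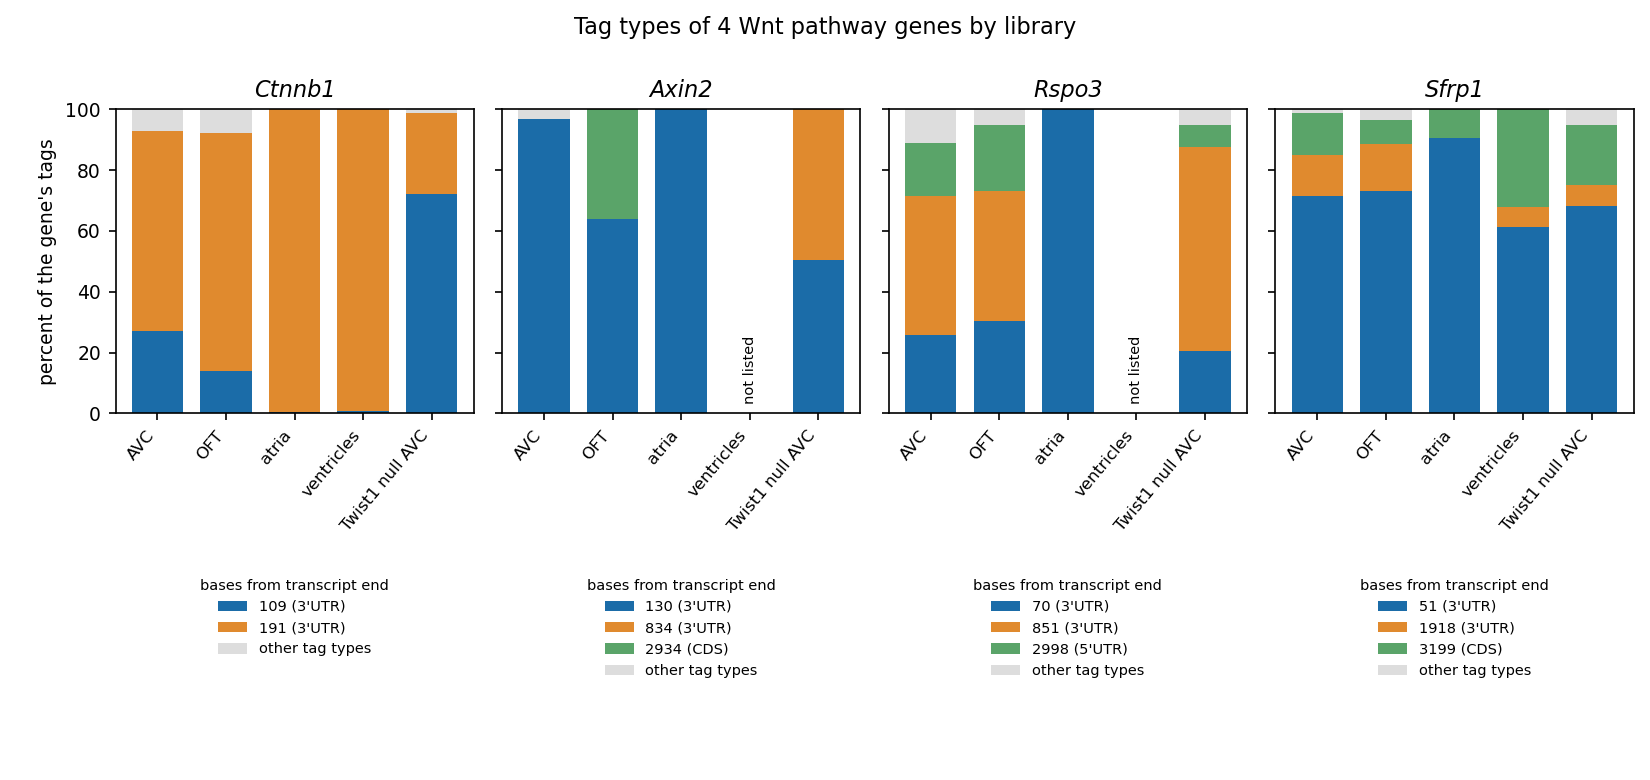
Percent of each gene's tags (y axis) from each tag type, by library (x axis), for Ctnnb1, Axin2, Rspo3 and Sfrp1, with colours for the distance of the site from the transcript end. Ctnnb1 tags come almost entirely from 1 site in atria and ventricles and mostly from another in the null AVC, and 49.7% of the Axin2 tags of the null AVC come from a site at which no other library has a listed tag.

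The TCF/LEF factors bind β-catenin and DNA. Lef1 was at 18.1 TPM in AVC and 11 in OFT and was not listed in the chambers, at least 5.37-fold higher in AVC (exact p = 1.71e-09) and 9.79-fold higher in OFT (exact p = 1.26e-07). Tcf7l2 was at 34.4 TPM in AVC, 24.7 in OFT, 4.29 in atria and 3.08 in ventricles. It was 9.27-fold (6.4 to 13.8) above the chambers in AVC (exact p = 9.59e-05) and 6.65-fold (4.51 to 10.1) in OFT (exact p = 0.000821). Tcf7l1, mostly a repressor, was at 27.5 TPM in AVC, 18.2 in OFT, 1.29 in atria and 7.10 in ventricles. The ratio over the chambers was 6.79 (4.71 to 10.02) in AVC (exact p = 0.000607) and 4.50 (3.04 to 6.80) in OFT (exact p = 0.00675), the latter lost with TMM (exact p = 0.0945). Ventricles exceeded atria 5.52-fold (2.26 to 16.2, exact p = 0.018), on 6 atrial tags. Tcf7 was at 12.8 TPM in AVC, 7.59 in OFT, 3.00 in atria and 5.92 in ventricles and was not called in any comparison with all tags counted, with an exact p of 0.0526 for AVC over chambers.

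Across the roles, then, 10 of the calls in OFT and 11 in AVC over chambers held under every alternative that could be fitted. Csnk1e, Dvl1, Fzd1, Fzd2, Lef1, Rspo3 and Wnt4 were among both. For Dvl1, however, the alternatives without T tags could not be fitted, and for Csnk1e the 3'-most site alone could not. These comparisons share the chamber libraries. The summed cushion mesenchyme, endothelial, cardiomyocyte, and smooth muscle and neural crest markers were each also higher in AVC and OFT than in both chambers. The summed epicardium markers were lower in AVC and OFT than in both chambers. The part of these markers in the differences was not tested. The pathway genes not called lay between log2 ratios of -1.11 and 1.55 for AVC over chambers, -0.36 and 1.47 for OFT over chambers, -1.57 and 0.97 for OFT over AVC, and -1.52 and 0.98 for ventricles over atria.

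In the Twist1 null AVC, the largest measured reductions were in the ligands Wnt9b and Wnt2 and the receptors Fzd4 and Ror2. Wnt9b had 7 tags (0.539 TPM) against 49 (8.07 TPM), a level 15.0-fold (6.74 to 39.1) lower (exact p = 5.03e-05). Wnt2 was at 0.616 TPM against 5.76, 9.35-fold (4.26 to 23.3) lower (exact p = 0.000856). The Wnt2 tags of the null library came from 1 of its 2 tag types, since the other was not listed there.

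Fzd4 was at 7.17 TPM in the null AVC against 46.3, 6.45-fold (5.09 to 8.25) lower (exact p = 0.000604). Ror2 was at 7.32 TPM against 46.3, 6.32-fold (4.99 to 8.06) lower (exact p = 0.000662). The main tag of each gene fell in step with the gene, from 234 to 85 tags for Fzd4 and from 268 to 70 for Ror2 in a library of over double the depth, and both tags lie at the 3'-most site.

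Wnt9a was not listed in the null AVC and was at least 3.42-fold lower (exact p = 0.0078). Dkk2 was at 1.23 TPM against 4.94, 4.01-fold (2.11 to 7.87) lower (exact p = 0.0215). The other calls were near the threshold. Dkk3 was at 15.6 TPM against 48.9 (3.13-fold lower, 2.61 to 3.75, exact p = 0.0281), Dvl3 at 34.3 against 94.0 (2.74-fold lower, 2.42 to 3.11, exact p = 0.049) and Wnt4 at 5.39 against 15.5 (2.87-fold lower, 2.08 to 3.97, exact p = 0.048). These 3 calls were lost with TMM (exact p of 0.0588, 0.0976 and 0.1). The summed cushion mesenchyme markers were also lower in the null AVC, at 546 TPM against 2622, and their part in these differences was not tested.

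The genes called higher in the null AVC were Fzd7, Dvl2, Dkk1 and Sfrp4. Fzd7 was at 65.1 TPM against 10.4, 6.28-fold (4.86 to 8.25) higher (exact p = 0.000695). Dvl2 was at 23.0 TPM against 3.29, 6.98-fold (4.44 to 11.6) higher (exact p = 0.000647). Most of their tags came from sites followed by T, the tags that were over-represented in the null library as a whole. The main tag types are shown for that reason, from chr1:59486921-59486941 and chr11:70009936-70009956, both in the 3'UTR on the plus strand.
Fzd7: CATGtacagatcacgaataaa
Dvl2: CATGttgagggtgggtggtgg
The Fzd7 tag was counted 702 times in the null AVC and 56 times in the wild-type AVC, and the Dvl2 tag 264 and 20 times. Tags that do not start with T went the same way, from 7 to 119 for Fzd7 and from 0 to 34 for Dvl2, and both genes were also called higher without the T tags. Dkk1 was at 4.55 TPM against 1.32 (3.45-fold higher, 1.64 to 8.37, exact p = 0.0491), with 23 tags that do not start with T in the null AVC and none listed in the wild type. Sfrp4 had 22 tags in the null AVC and none listed in the wild type (at least 1.03-fold higher, exact p = 0.00149), and all of them start with T. With TMM, Fzd6, read from T tags alone, was called higher too (23.6 against 9.71 TPM, exact p = 0.0471).

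**Figure D4:**
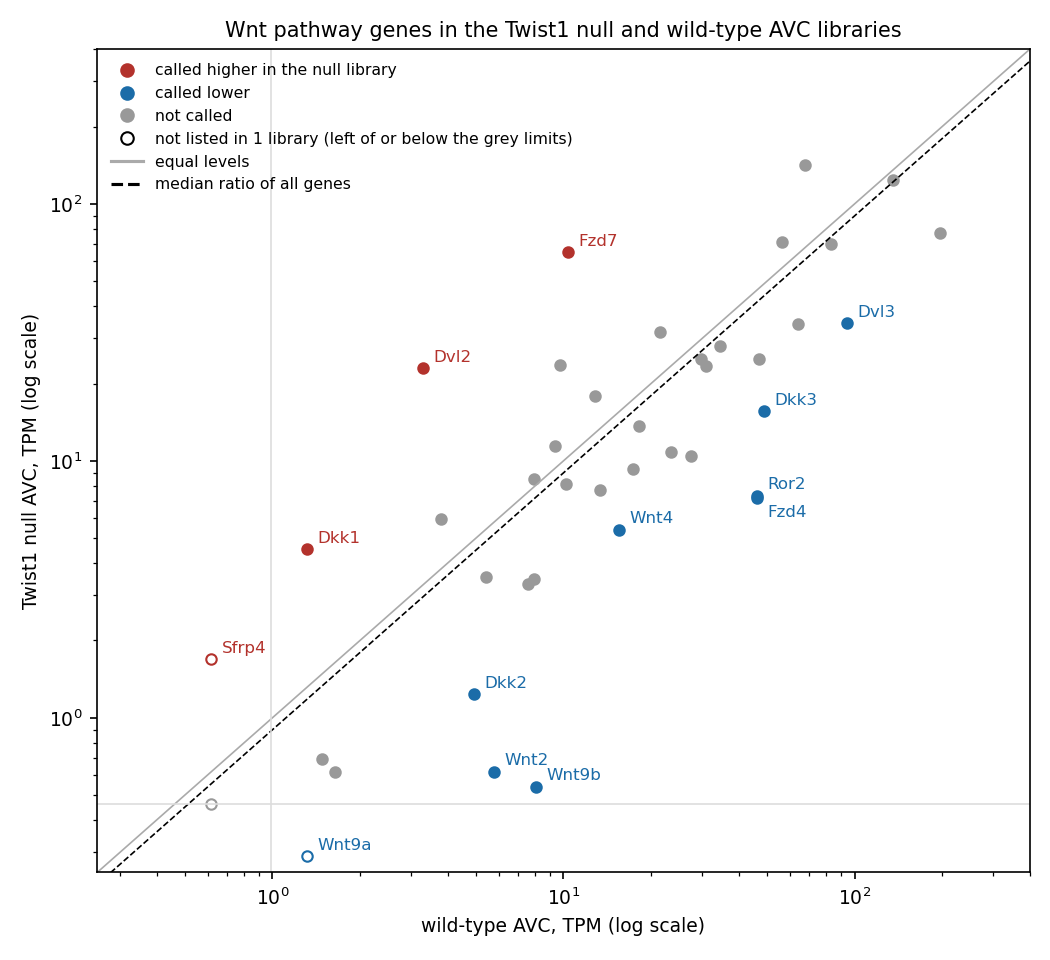
Level of each listed Wnt pathway gene in the wild-type AVC (x axis) and the Twist1 null AVC (y axis), in TPM on log scales, coloured by call, with open points for genes not listed in 1 library. Wnt9b, Wnt2, Ror2 and Fzd4 lie farthest below the line of equal levels, and Fzd7 and Dvl2 farthest above it.

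With all tags counted, other parts of the pathway stayed within the spread that the test allowed between the null and wild-type AVC. Rspo3 was at 70.8 TPM in the null AVC against 56.3 (exact p = 0.65), Fzd2 at 124 against 136 (exact p = 0.854) and Lef1 at 13.6 against 18.1 (exact p = 0.587). Sfrp1 was at 76.8 TPM against 197, 2.57-fold (2.36 to 2.80) lower by value (exact p = 0.0636). Axin2 was at 23.4 TPM against 30.8 (exact p = 0.597), as a sum over all its sites. Ctnnb1 was at 142 TPM against 67.6 (exact p = 0.142). T tags made up 1824 of its 1845 tags in the null AVC and 382 of 411 in the wild type. Dvl1 was at 8.09 TPM against 10.2 and was not called. Without T tags it was called higher in the null AVC, on 53 tags with none listed in the wild type (exact p = 9.29e-05). The 27 genes not called and with a ratio lay between log2 ratios of -1.42 and 1.28.

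Tag types of 1 gene often changed to a different extent in this comparison. Of 15 pathway genes with at least 50 tags from each of 2 or more types, 7 had types whose log2 ratios differed by 2 or more between null and wild-type AVC. These were Axin2, Ctnnb1, Dvl1, Fzd3, Lrp6, Tcf7l2 and Wnt5a. In 5 of the 15, all of these but Lrp6 and Wnt5a, such types also went in opposite directions, against 48.1% of all such genes. Of all such genes, 57.2% had types that differed by 2 or more in this comparison. The shares were 48.5% for AVC over chambers, 48.0% for OFT over chambers, 6.73% for ventricles over atria and 5.02% for OFT over AVC. Among the pathway genes Ctnnb1 and Sfrp1 had such types for AVC over chambers, joined by Wnt5a for OFT over chambers. Sfrp1 had them for ventricles over atria, and none of 8 genes for OFT over AVC. The comparison of OFT with AVC was thus the one in which the tags of a gene moved most alike, and what separates the libraries elsewhere was not tested.

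A wider list of 70 Wnt pathway genes outside the rule gave counts of the same kind, to be read against the shares of all genes given above. Over the chambers, 40 of 55 tested were called higher in AVC and 1 lower (26 and 2 with TMM), and 39 of 57 higher in OFT and 0 lower (24 and 1 with TMM). Of all genes, 43.4% and 40.6% were called higher, or 25.6% and 26.2% with TMM. Of the degradation complex and its kinases, 10 of 12 were called higher in AVC and 9 of 12 in OFT, of the nuclear partners 9 of 12 and 8 of 12, and of the planar polarity genes 10 of 13 and 12 of 15. With TMM these counts were 5 and 5, 7 and 6, and 7 and 6. Of the feedback targets, 4 of 9 were called higher in each and 1 lower in AVC, and with TMM 2 were higher and 1 lower in each. Gsk3b, the kinase that marks β-catenin for degradation, was at 86.2 TPM in AVC and 101 in OFT and was not listed in the chambers (exact p = 6.41e-15 and 3.28e-15). Tbl1x, a cofactor of β-catenin, was at 210 TPM in AVC, 222 in OFT and 3.49 in the chambers (exact p = 7.36e-11 and 4.59e-11). Among feedback targets Msx2 was at 78.8 TPM in AVC and 20.1 in OFT and was not listed in the chambers (exact p = 1.33e-14 and 1.36e-09). Scrib, of the planar polarity branch, was at 25.5 TPM in AVC, 27.0 in OFT and 0.675 in the chambers (exact p = 1.19e-07 and 5.66e-08). These 4 genes were the ones with the smallest exact p of their lists. Over all lists together, the share called higher was above that of all genes in both comparisons, with and without TMM. This difference was not tested.

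In the R-spondin axis, 3 of 3 genes tested were called higher in AVC over chambers and 3 of 4 in OFT (2 and 2 with TMM), led by Znrf3, a ligase that removes Frizzled, at 17.0 TPM in AVC against 1.35 (exact p = 5.3e-05), and Lgr5, an R-spondin receptor, at 3.23 TPM in OFT and not listed in the chambers (exact p = 0.000376). Of the extracellular modulators, 3 of 4 were called higher in each (with TMM 2 higher and 1 lower in AVC, and 3 higher in OFT), led by Tpbg at 21.1 TPM in AVC against 2.14 (exact p = 9.71e-05) and Frzb, a Wnt-binding protein, at 13.3 TPM in OFT and not listed in the chambers (exact p = 3.04e-08). Porcn, which acylates Wnt ligands for secretion, was at 2.80 TPM in AVC and not listed in OFT or the chambers (exact p = 0.00149 and 0.000487). The carrier Wls was not called in OFT over chambers, at 217 against 93.9 TPM (exact p = 0.0985).

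Between OFT and AVC, 5 of 59 genes of the wider list were called higher in OFT and 4 lower (5 and 3 with TMM), where 5.22% and 7.35% of all genes were called. By list these were 2 of 5 extracellular modulators higher, 1 of 2 secretion genes lower, 1 higher and 1 lower of 4 R-spondin axis genes, 1 higher and 2 lower of 9 feedback targets, and 1 of 15 planar polarity genes higher. Sost, a secreted inhibitor that binds LRP5 and LRP6, was at 3.80 TPM in OFT and not listed in AVC (exact p = 0.000376), and Lgr6 was at 2.09 TPM and not listed (exact p = 0.00545). Msx2 was 3.92-fold lower in OFT (exact p = 0.00959). Dact2 was at 1.90 TPM in OFT and not listed in AVC (exact p = 0.0078). No gene of the degradation complex or of the nuclear partners was called (2 lists of 12 tested), with the smallest exact p of 0.265 for Amer1 (5.89 against 10.9 TPM) and 0.0646 for Pygo1 (2.66 against 8.07 TPM).

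Between ventricles and atria, 5 of 46 were called higher and 7 lower (3 and 9 with TMM), where 11.1% and 9.03% of all genes were called. By list these were 2 higher and 3 lower of 11 nuclear partners, 2 higher and 1 lower of 11 planar polarity genes, 1 higher and 1 lower of 8 feedback targets, 1 of 2 R-spondin axis genes lower and 1 of 11 genes of the degradation complex lower. Tle1, a corepressor, was at 4.93 TPM in atria and not listed in ventricles (exact p = 0.000293), Daam1 at 4.50 TPM in ventricles and not listed in atria (exact p = 0.000487), and Znrf3 at 2.57 TPM in atria and not listed in ventricles (exact p = 0.00545). Gsk3a was at 1.71 TPM in atria and not listed in ventricles (exact p = 0.0254), and Lbh was at 132 TPM in ventricles against 43.9 in atria (exact p = 0.0336). Kremen1, at 52.6 TPM in ventricles against 22.5 in atria, and Wls, at 112 against 78.0, were not called (exact p of 0.105 and 0.48).

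In the null AVC, 5 of 60 were called higher than in the wild type and 10 lower (6 and 9 with TMM), where 11.9% and 12.7% of all genes were called. Ryk, a Wnt co-receptor, was at 13.8 TPM against 82.5 (5.98-fold lower, exact p = 0.000828), with 3 of 14 planar polarity genes lower and 1 higher. Tle2, a corepressor, was at 5.16 TPM against 23.7 (exact p = 0.0049), with 3 of 12 nuclear partners lower. Gsk3b was at 23.2 TPM against 86.2 (exact p = 0.0114). Lgr5, at 1.65 TPM in the wild-type AVC, and Apcdd1, at 0.988 TPM, were not listed in the null AVC (exact p of 0.00278 and 0.0254). Of the R-spondin axis 1 of 5 genes was higher and 1 lower, and of 10 feedback targets 2 were higher and 1 lower. Notum was called higher, as 1 of 3 genes tested in the list that also holds the secretion genes Porcn and Wls. Sp5, a direct target of canonical signalling in several tissues, was called higher too. Notum and Sp5 were at 1.85 and 1.0 TPM in the null AVC and not listed in the wild type (exact p of 0.00111 and 0.0168). The smallest level that could be seen in the shallower wild-type AVC library was 0.988 TPM, so the Sp5 call rests on a level near that limit.

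Promoter sequence was available for 39 of the 56 genes, as 51 stretches from 250 bases before to 50 after a RefSeq transcript start on GRCm38.p6. The TCF/LEF core CTTTGA, searched on both strands, was in 6 of these (11.8%) and in 16.0% of 32851 promoters of all genes. The E-box CANNTG, the kind of motif that TWIST1 binds with its partners, was in 31 (60.8%) and in 72.3% of all promoters. The genes with a TCF/LEF core were Dkk1, Fzd1, Lef1, Ror1, Wnt11 and Wnt5b. Dkk1, itself a known target of canonical signalling, held 2 in the 250 bases before its start, at chr19:30549497-30549746 on the minus strand, and is shown as the gene with the largest measured ratio of OFT over AVC, with the cores in capitals.
Dkk1 promoter: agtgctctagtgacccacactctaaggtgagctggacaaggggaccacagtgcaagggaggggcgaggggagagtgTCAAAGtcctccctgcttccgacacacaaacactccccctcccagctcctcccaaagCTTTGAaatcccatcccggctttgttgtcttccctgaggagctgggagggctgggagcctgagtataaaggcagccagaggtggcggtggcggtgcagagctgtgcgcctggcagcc
These matches describe the sequence and are not evidence of binding.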

How the data were processed

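Each deposited file lists the counts of 17-base tag types after CATG in 1 library. Per the study's methods, the authors called bases on an Illumina analyzer, kept the first 21 bases of filtered reads and kept tag types with more than 5 tags. No replicate libraries were made, and mapping to genes is not in the files. Here, virtual tags were cut at every NlaIII site of 33363 RefSeq-linked GENCODE M21 transcripts (GRCm38, 20 adenines added), and sense tags of 1 gene were summed (308949 of 315529 virtual tags). The submitters name mm9, so coordinates come from the match to GRCm38. TPM used the sum of all listed tags. Genes were tested with edgeR 4.0.16 in R 4.3.3 (exact test, dispersion 0.12, all genes with a tag in the comparison), with figures and intervals from Python 3.11.15 and scipy 1.17.1. The test was tried on simulated counts. Alternatives included TMM, DESeq2 1.42.0 size factors, other dispersions, filters and tag choices. One alternative, leaving tags that start with T out of counts and totals, was chosen after seeing the data. Every called gene is named, with other listed genes given by value or range. Tags are shown for genes with the largest called changes or diverging tag types. The members, gene lists and tests were chosen with earlier results of these data known.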

Additional observations from a re-analysis of the deposited data

Results flagged for a closer look

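The effects over chambers of OFT and AVC share their control libraries, and their difference is the direct test of OFT against AVC. By edgeR's exact test 11 pathway genes differed in this way. Lower in OFT were Sfrp5 (exact p = 1.04e-07), Wnt9b (exact p = 3.37e-06), Wnt2 (exact p = 2.81e-05), Fzd10 (exact p = 0.000293), Axin2 (exact p = 0.000996), Fzd5 (exact p = 0.0168), Fzd9 (exact p = 0.0254), Wnt9a (exact p = 0.0254) and Fzd3 (exact p = 0.0364). Higher in OFT were Dkk1 (exact p = 0.00494) and Wnt2b (exact p = 0.0391). Adjusted over all genes, Sfrp5, Wnt9b, Wnt2, Fzd10 and Axin2 stayed under 0.05.

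Tags on the antisense strand, which enter no comparison, outnumbered the sense tags of 6 pathway genes in some libraries, and in 4 of them with at least 20 antisense tags. Antisense tags of Fzd7 numbered 65 in atria. Those of Lrp6 numbered 40 in atria and 306 in the null AVC, those of Tcf7 43 in OFT, and those of Tcf7l2 41 in atria, 63 in ventricles and 379 in the null AVC. Below that number were Wnt2, with 10 antisense tags in OFT and 16 in the null AVC, and Wnt2b, with 12 in the null AVC. The source of these tags was not tested.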

How the results depend on the processing

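No paired analysis was possible because each group has 1 library and the labels pair no samples. For the same reason no library could be left out and the DESeq2 test could not be fitted, so only its size factors were used. Over 18 alternatives for each comparison with chambers and 16 for each of the others, single calls kept direction and threshold 1215 times, kept direction but lost the call 230 times and reversed 5 times. The reversals were Ctnnb1 without tags that start with T (log2 8.16 in AVC and 8.72 in OFT over chambers, and 8.02 and 8.58 with such tags also out of the totals) and Wnt4 in ventricles over atria with shared tags counted (log2 -0.016). By construction, what remains of Ctnnb1 there is a few tag types not listed in the chambers.

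Calls higher in AVC over chambers, 28 in all, were 17 at a dispersion of 0.4 and 13 when called by a 4-fold difference from the median ratio. Those lower, 2 in all, were 6 with TMM, 7 with DESeq2 size factors, 4 against atria alone, 1 with genes of at least 50 tags, with tag types of more than 10 tags, with 5 tags set for a missing type, after thinning or against ventricles alone, and 0 without T tags in either way. For OFT over chambers the 18 higher became 11 at a dispersion of 0.4 and 10 by fold. The 4 lower became 1 at a dispersion of 0.4, without T tags in either way or against ventricles alone, and 2 by fold, with genes of at least 50 tags, with the 3'-most site alone or with 5 tags set for a missing type. For OFT over AVC the 2 higher became 4 at a dispersion of 0.05, 0 at 0.4 or with Benjamini-Hochberg adjustment, and 1 by fold, with at least 50 tags, with more than 10 tags per type, with 5 set for a missing type or after thinning. The 9 lower became 4 at a dispersion of 0.4 or with 5 set for a missing type, 5 with adjustment or by fold, and 3 with at least 50 tags. For ventricles over atria the 4 higher became 2 at a dispersion of 0.4, with adjustment or with more than 10 tags per type, 1 by fold, and 0 with at least 50 tags or 5 set for a missing type. The 10 lower became 5 at a dispersion of 0.4 or with more than 10 tags per type, 3 with adjustment or 5 set for a missing type, 4 by fold and 1 with at least 50 tags. For the null AVC the 4 higher became 1 at a dispersion of 0.4 and 2 with 5 set for a missing type or after thinning. The 9 lower became 14 at a dispersion of 0.05, 3 at 0.4, 4 with adjustment or by fold, and 5 without T tags in counts and totals. Beyond these constructions, the cause was not tested.

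Calls that held under every alternative that could be fitted for the gene were 11 of 30, 10 of 22, 3 of 11 (Fzd10, Sfrp5 and Wnt9b lower in OFT), 2 of 14 (Fzd1 and Fzd7 lower in ventricles) and 2 of 13 (Wnt2 and Wnt9b lower in the null AVC), in the order above. The alternatives without T tags could not be fitted for Dvl1 over chambers or for Fzd7 in ventricles over atria. The 3'-most site alone could not be fitted for Csnk1e over chambers or for Wnt2 in the null AVC, since neither gene has a listed tag type there. The alternative with a minimum number of tags per gene could not be fitted for genes below it, among them Wnt2 in the null AVC. Whether these calls would hold there is therefore not known. Depth limits genes near 6 tags per library, where 1 tag type decides the call.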
